A study of Mus musculus with 30 samples.

Results

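Of the 39 complement and coagulation genes described here, 38 had a probe on the bead array, with 55 probes in all among the 19406 genes and 46643 probes measured. A probe was assigned to the set where the platform annotation gave it the symbol of a listed gene. C3 had no probe under its symbol, so its expression was not analysed here, and it enters only the promoter counts below. Of the measured genes 20 belong to complement and 18 to coagulation and fibrinolysis.

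RNA came from liver and from subcutaneous fat of male mice killed at 4 months of age after a night without food, and each tissue and genotype was represented by 3 arrays. All 5 genotypes concern the growth hormone receptor: unaltered (WT), cut short at amino acid 569 (569), cut short at amino acid 391 (391), altered in the Box1 segment (Box1), or missing altogether (KO). The series title calls the mutants knock-in animals. The sources used here do not state the exact Box1 change, the strain or the number of founder lines. As background, the receptor signals through the kinase JAK2, which binds at Box1, and through STAT5, which docks on tyrosines of the receptor's tail. The 391 truncation leaves less of this tail than the 569 truncation. The labels do not state that each array is a different mouse, so the p-values below reflect how far these samples scatter, and that scatter may be technical. Replicate numbers below only follow the order of the deposited samples. The same number in liver and fat does not mean the same mouse.

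Each deposited value is a ratio of a probe's signal to that probe's own median over the 15 arrays of its tissue, so a ratio of 1 is the tissue median. Such ratios carry no level: different genes, or liver and fat, cannot be ranked by abundance, and markers cannot show whether a cell type was present. Differences below are log2 differences ± SE from limma with 3 arrays per group, and a gene is called where its p-value, adjusted over all 46643 probes (Benjamini-Hochberg), lies under 0.05. The barcodes in the sample titles were read as slides. In each tissue WT and 569 shared a slide and 391 and KO shared another. The Box1 arrays of liver and fat lay together on a slide that held no other genotype. For every other genotype liver and fat lay on different slides, so the comparison of liver with fat has another slide layout in Box1. Slide and genotype therefore cannot be told apart when 391, Box1 or KO is compared with WT or 569. The main Ghr probe stood at 0.23 to 0.3 in the livers labelled Box1 and at 1.09 to 1.51 in those labelled KO. The other Ghr probe stood at 0.96 to 1.28 and 0.81 to 1.4. In WT livers the main probe stood at 0.92 to 1.27 and the other at 0.61 to 1.14. Against WT the main probe was called lower in Box1 (-2.05 ± 0.23, limma adjusted p = 2.05e-04). Neither probe was called in KO (0.23 ± 0.23 and 0.34 ± 0.32, adjusted p = 0.776 and 0.764). Where the probes lie on the transcript is unknown, so these values may check no label. Whether the Box1 and KO labels were exchanged cannot be told from them. This bears on every statement about either genotype, and a genotype name below means the arrays so labelled.

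As background, complement is a cascade of plasma proteins started by antibody-bound C1 (classical pathway), by mannose-binding lectins (lectin pathway) or by spontaneous C3 turnover (alternative pathway). All routes split C5, after which C6, C7, C8 and C9 assemble into a pore, the membrane attack complex. Coagulation is a parallel protease cascade that ends in fibrin. Hepatocytes make most of these proteins, while C1q comes mainly from macrophages. Mice differ by sex in the activity of the terminal pathway, which is higher in males, and the liver's sex-dependent genes are set by growth hormone.

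The changes concentrated in a few genes of the terminal and lectin pathways and of the contact phase, while most of the set stayed uncalled. In liver 0 of 38 genes were called between 569 and WT, where 0.0155% of all genes were called (limma; at an unadjusted p under 0.05, 4 genes of the set and 9.94% of all genes). In 391 liver 7 genes fell and 0 rose (3.18% of all genes called, 0.711% downward). In Box1 liver 6 fell and 0 rose (2.1% of all genes, 0.484% downward). In KO liver 5 fell and 1 rose (3.3% of all genes, 0.871% downward and 2.43% upward). C6, C8a, C8b, C9 and Mbl1 were called lower in each of the 391, Box1 and KO livers. The median difference of the set was -0.03, -0.02, -0.03 and -0.01 in 569, 391, Box1 and KO, against -0.03, 0.04, 0.04 and 0.03 for all genes, so the median of the set stayed near that of all genes.

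**Figure D1:**
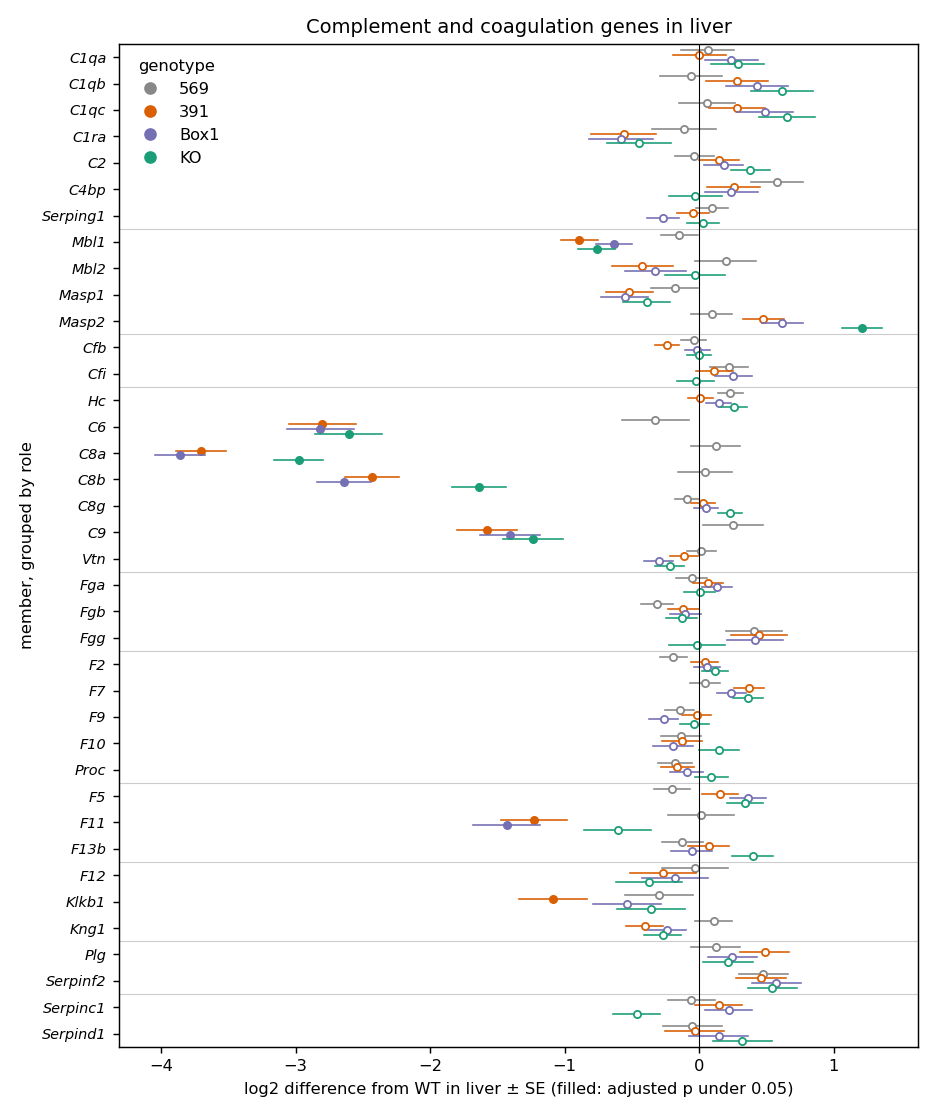
Log2 difference from WT in liver for the 38 measured genes, one row per gene, grouped by role, with 569, 391, Box1 and KO in separate colours. Points are limma estimates, bars are ± SE, and filled points have an adjusted p under 0.05. C8a, C8b, C6 and C9 lie farthest to the left in 391, Box1 and KO, and their 569 points lie near 0.

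Promoters are shown for 5 of the terminal genes because the members of one complex moved so unequally. C6, C8a, C8b and C9 fell in 3 genotypes. C8g, whose protein joins those of C8a and C8b in one molecule, was not called. Each line holds 250 bases before and 50 after the start of the gene, 5′ to 3′ on the strand of the gene, from RefSeq on build GRCm38.p6. The positions are chr15:4726960-4727259 (+) for C6, chr4:104876349-104876648 (-) for C8a, chr4:104766067-104766366 (+) for C8b, chr15:6445096-6445395 (+) for C9 and chr2:25501670-25501969 (-) for C8g. Capitals mark exact matches, on either strand, to the 5 motifs named after the sequences.
C6: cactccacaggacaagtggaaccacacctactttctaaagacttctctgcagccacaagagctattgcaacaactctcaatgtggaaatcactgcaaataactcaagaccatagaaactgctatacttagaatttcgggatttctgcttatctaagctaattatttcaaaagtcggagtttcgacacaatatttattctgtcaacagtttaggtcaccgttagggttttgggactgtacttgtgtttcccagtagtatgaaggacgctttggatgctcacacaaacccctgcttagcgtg
C8a: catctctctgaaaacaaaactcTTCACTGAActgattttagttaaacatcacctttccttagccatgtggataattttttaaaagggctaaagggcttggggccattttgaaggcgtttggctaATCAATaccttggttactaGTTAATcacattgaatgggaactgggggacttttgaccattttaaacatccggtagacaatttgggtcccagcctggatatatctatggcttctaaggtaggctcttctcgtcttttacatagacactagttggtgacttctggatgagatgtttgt
C8b: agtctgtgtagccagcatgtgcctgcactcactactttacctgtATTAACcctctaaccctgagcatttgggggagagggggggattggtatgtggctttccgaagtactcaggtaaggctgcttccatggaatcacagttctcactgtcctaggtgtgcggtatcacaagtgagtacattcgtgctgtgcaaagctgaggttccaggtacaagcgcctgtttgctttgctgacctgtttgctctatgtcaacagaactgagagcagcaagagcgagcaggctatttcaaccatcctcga
C9: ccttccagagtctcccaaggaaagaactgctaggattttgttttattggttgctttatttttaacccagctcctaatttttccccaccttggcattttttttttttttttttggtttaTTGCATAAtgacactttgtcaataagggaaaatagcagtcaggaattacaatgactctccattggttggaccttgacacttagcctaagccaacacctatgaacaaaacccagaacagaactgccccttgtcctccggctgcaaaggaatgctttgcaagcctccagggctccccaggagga
C8g: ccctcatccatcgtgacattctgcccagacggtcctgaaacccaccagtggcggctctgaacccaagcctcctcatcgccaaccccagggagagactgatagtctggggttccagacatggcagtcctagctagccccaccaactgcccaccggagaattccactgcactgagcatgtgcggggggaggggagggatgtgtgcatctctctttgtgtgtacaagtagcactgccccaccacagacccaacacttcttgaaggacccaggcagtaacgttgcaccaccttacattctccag

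Those motifs were TTCNNNGAA (STAT factors), GTTAAT (an HNF1 half-site), ATTGAT (HNF6), CAAAGTCCA (HNF4) and TTGCNNAA (C/EBP factors). A STAT match stood in the C8a promoter, beginning at position -228 from the start site, along with an HNF6 match and an HNF1 match. The C8b promoter held an HNF1 match, the C9 promoter a C/EBP match, and the C6 and C8g promoters none of the 5. A second C8g promoter, not shown, held none either. Matches also stood in promoters, not shown, of terminal genes that were not called. Vtn had a STAT and an HNF1 match, and Hc had an HNF1 match. RefSeq tables gave a promoter for 30 of the 39 genes, C3 among them. A STAT match was present for 7 of these 30 genes, against 8.3% of 32851 promoters of all genes, and for 1 of the 5 genes that fell in all 3 genotypes. HNF1 matches stood in 10 of the 30 (7.1% of all promoters), HNF6 matches in 5 (7.54%), C/EBP matches in 9, C3 included (10.8%) and HNF4 matches in 0 (0.475%). None of these matches is evidence of a site in use, and no match says only that the letters are absent from the window.

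C8a encodes the chain of C8 that inserts into the target membrane, and it fell more than any other measured gene of the set in all 3 genotypes. Its ratios were 9.06, 7.42 and 9.28 in WT and 9.24, 8.97 and 9.73 in 569. They were 0.5, 0.77 and 0.73 in 391, 0.77, 0.49 and 0.54 in Box1, and 1.34, 0.95 and 1 in KO. Every WT and 569 array thus stood above every array of the other genotypes, with a wide gap between. Against WT the gene was 13-fold lower in 391 (-3.71 ± 0.18, limma adjusted p = 1.55e-08), 14.5-fold lower in Box1 (-3.86 ± 0.18, adjusted p = 7.15e-09) and 7.88-fold lower in KO (-2.98 ± 0.18, adjusted p = 2.28e-07).

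C8b encodes the chain that binds the growing complex, and its gene lies directly beside C8a on chromosome 4. Ratios of C8b were 2.66, 2.61 and 3.41 in WT and 2.8, 2.63 and 3.53 in 569. They were 0.43, 0.5 and 0.7 in 391, 0.61, 0.42 and 0.38 in Box1, and 1.02, 1 and 0.77 in KO. No array of the last 3 genotypes reached the WT or 569 range. The fall was 5.4-fold in 391 (-2.43 ± 0.20, limma adjusted p = 6.98e-06), 6.24-fold in Box1 (-2.64 ± 0.20, adjusted p = 2.34e-06) and 3.11-fold in KO (-1.64 ± 0.20, adjusted p = 4.03e-04).

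C8g encodes the third C8 chain, a lipocalin linked to the C8a chain. Its ratios lay between 0.87 and 1.23 in all 15 liver arrays. The differences were 0.03 ± 0.09 in 391, 0.05 ± 0.09 in Box1 and 0.23 ± 0.09 in KO, and limma called none of them (adjusted p = 0.952, 0.899 and 0.258). The 3 chains of C8 therefore did not move together at the level of these probes. A single probe stood for each chain.

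C6 begins the membrane-bound assembly after C5 is split. Its main probe gave 5.44, 5 and 6.72 in WT and 3.82, 4.07 and 5.99 in 569. Ratios were 0.88, 0.66 and 0.93 in 391, 1, 0.54 and 0.97 in Box1, and 0.76, 1.27 and 0.84 in KO. The WT and 569 ranges overlapped each other and lay clear of the rest. C6 fell 6.97-fold in 391 (-2.80 ± 0.25, limma adjusted p = 1.49e-05), 7.04-fold in Box1 (-2.82 ± 0.25, adjusted p = 1.3e-05) and 6.09-fold in KO (-2.61 ± 0.25, adjusted p = 2.82e-05). A second probe of C6 showed none of this: its liver ratios lay between 0.85 and 1.31, and its differences were -0.00060, 0.18 and -0.08 in 391, Box1 and KO (limma adjusted p = 1, 0.656 and 0.893). The calls of C6 rest on 1 of its 2 probes.

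C9 forms the ring of the pore. The main C9 probe gave 1.98, 1.93 and 2.17 in WT and 2.03, 2.64 and 2.63 in 569. It gave 0.6, 0.98 and 0.53 in 391, 1, 0.69 and 0.65 in Box1, and 0.78, 0.71 and 1.14 in KO. Again the WT and 569 arrays all stood above the others. The gene fell 2.99-fold in 391 (-1.58 ± 0.22, limma adjusted p = 0.00176), 2.64-fold in Box1 (-1.40 ± 0.22, adjusted p = 0.00459) and 2.36-fold in KO (-1.24 ± 0.22, adjusted p = 0.00881). The KO call was lost without KO replicate 2 (adjusted p = 0.0556). The other C9 probe pointed the same way with smaller differences, -0.54 in 391 and -0.42 in KO, both called, and -0.29 in Box1, not called (limma adjusted p = 0.115).

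Hc, the mouse C5 gene, stayed between 0.83 and 1.14 in all liver arrays, with differences of 0.01, 0.15 and 0.26 in 391, Box1 and KO that were not called. Vtn, whose product vitronectin blocks the insertion of the complex, stayed between 0.78 and 1.27, and its differences of -0.11, -0.30 and -0.22 were not called either. C7, a neighbour of C6 and C9 on chromosome 15 that is not among the listed genes, had liver ratios of 0.91 to 1.11. The calls in the terminal pathway therefore came at C6, C8a, C8b and C9, and not at Hc, C7, C8g or Vtn. In the RefSeq gene order 1 protein-coding gene lies between C6 and C7 and 6 lie between C7 and C9.

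**Figure D2:**
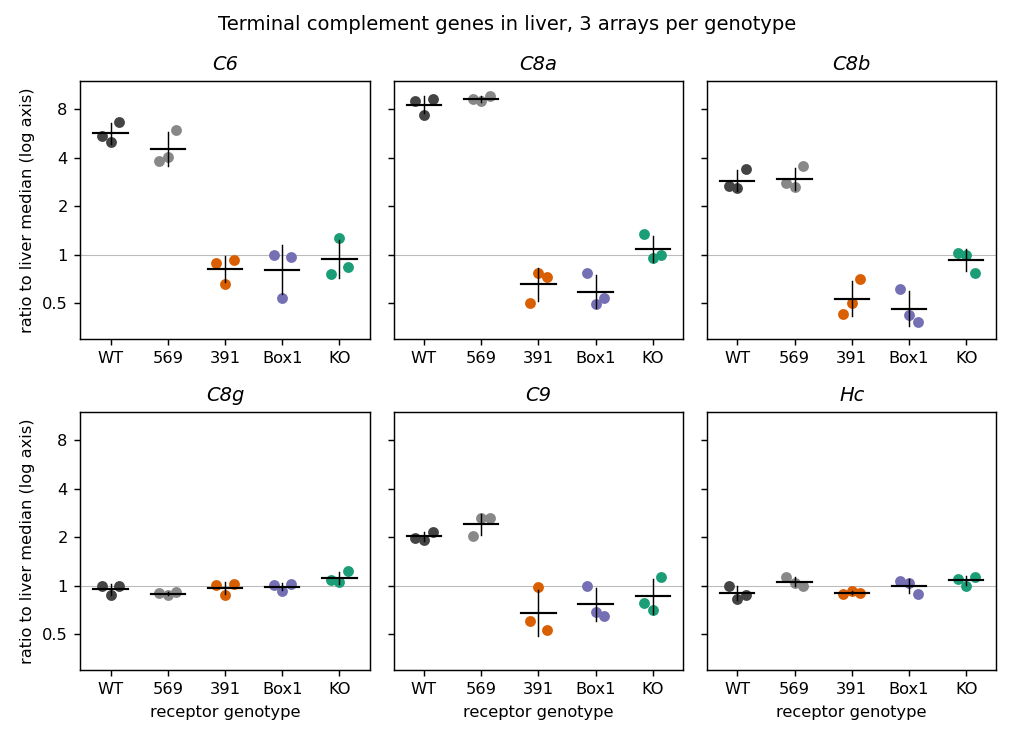
Liver ratios of 6 terminal complement genes by genotype on a log axis; each point is an array, the bar is the mean of the log2 ratios and the line spans ± SD of 3 arrays. C6, C8a, C8b and C9 step down between 569 and 391, while C8g and Hc stay near 1 in every genotype.

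In the lectin pathway Mbl1 fell and Masp2 rose, each modestly beside the terminal genes. Mbl1 encodes mannose-binding lectin A, a plasma lectin that recognises microbial sugars. The gene had ratios of 1.65, 1.34 and 1.48 in WT and 1.39, 1.39 and 1.25 in 569. Its ratios were 0.82, 0.66 and 0.95 in 391, 0.98, 0.88 and 1.02 in Box1, and 1, 0.73 and 0.92 in KO. The lowest WT or 569 array, at 1.25, lay above the highest of the others, at 1.02. The difference was -0.89 ± 0.14 in 391 (1.85-fold lower, limma adjusted p = 0.00342), -0.63 ± 0.14 in Box1 (adjusted p = 0.0339) and -0.76 ± 0.14 in KO (adjusted p = 0.00842). The Box1 call was lost in each of 6 refits without 1 array of WT or Box1 (adjusted p = 0.0559 to 0.146). The 391 call was kept in all 6 such refits and lost in a fit of the 6 WT and 391 arrays alone (limma adjusted p = 0.0517).

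Masp2 encodes the protease that travels with the lectins and splits C4 and C2. It had ratios of 1, 0.61 and 0.59 in WT, 0.81, 0.7 and 0.77 in 569, 1.1, 0.95 and 0.93 in 391, and 1.05, 1.13 and 1.1 in Box1. The 3 KO livers stood together at 1.64, 1.63 and 1.67, above all the other arrays. Masp2 was 2.31-fold higher in KO than in WT (1.21 ± 0.15, limma adjusted p = 4.75e-04), and the differences in 391 (0.48 ± 0.15, adjusted p = 0.146) and Box1 (0.62 ± 0.15, adjusted p = 0.0588) were not called. WT replicate 1 decides the latter: without it the limma differences were 0.72 in 391 (adjusted p = 0.00127) and 0.87 in Box1 (adjusted p = 2.31e-04), both called. A second Masp2 probe did not move with the first, at -0.02 ± 0.13 in KO (adjusted p = 0.983). The Masp2 locus also gives rise to a shorter product without the protease domain, and which probe reads which transcript is unknown here.

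Masp1, a companion protease, had differences of -0.52, -0.55 and -0.39 in 391, Box1 and KO, none called against WT, and its 3 other probes were not called either. Mbl2, the gene of mannose-binding lectin C, had ratios between 0.66 and 1.66 with differences of -0.42, -0.33 and -0.03, none called. Of the 4 lectin pathway genes, 1 fell in 391 and in Box1, and 1 fell and 1 rose in KO.

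In the classical pathway none of the 7 measured genes was called in any liver comparison with WT, with 1 in 569, 1 in 391, 3 in Box1 and 3 in KO under an unadjusted p of 0.05 in limma. Of all genes, 9.94%, 17.7%, 16.9% and 18% had such a p in these 4 comparisons. The 3 chains of C1q, which recognises bound antibody, are encoded side by side on chromosome 4 in the order C1qb, C1qc and C1qa. C1qb ratios were 1, 0.92 and 0.83 in WT, 0.83, 0.86 and 0.94 in 569, 1.09, 0.75 and 1.69 in 391, 1.58, 0.96 and 1.23 in Box1, and 1.49, 1.6 and 1.16 in KO. C1qc was similar, with 0.93, 0.96 and 0.81 in WT, 0.93, 0.93 and 0.95 in 569, 1.2, 0.73 and 1.49 in 391, 1.46, 1 and 1.37 in Box1, and 1.44, 1.66 and 1.17 in KO. C1qa varied less, with 1.03, 0.91 and 0.75 in WT, 0.95, 0.82 and 1.03 in 569, 0.77, 0.72 and 1.27 in 391, 1.11, 0.83 and 1.26 in Box1, and 1.05, 1.22 and 1 in KO. All KO arrays of C1qb and C1qc stood above all WT arrays, whereas those of 391 straddled them. Of all genes, 14.1% had all KO arrays above all WT arrays.

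The KO differences of C1qa, C1qb and C1qc were 0.29 ± 0.20, 0.62 ± 0.23 and 0.65 ± 0.21, and limma called none over the 5 genotypes (adjusted p = 0.63, 0.239 and 0.151). In a fit of the 6 WT and KO arrays alone, C1qb and C1qc were called in KO. Among 21 measured macrophage markers, Timd4, a receptor of resident liver macrophages, rose in KO by 0.96 ± 0.15 (limma adjusted p = 0.00308), and the median marker difference was 0.32. At an unadjusted p under 0.05, 8 of the 21 were higher in KO and 0 lower, and 13% of all genes were higher. In 391 and Box1 the marker medians were 0.04 and 0.17 and no marker was called, with 0 and 2 under an unadjusted p of 0.05 (17.7% and 16.9% of all genes). The part of macrophage number in the C1q values was not tested, and in bulk tissue fewer cells of a type and less RNA per cell cannot be told apart.

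The other classical genes moved little. C1ra, a protease of C1, had the lowest values of the group in 391 and Box1 (-0.56 ± 0.24 and -0.58 ± 0.24, not called), and 391 replicate 3 alone stood at 0.47. C2, the gene beside Cfb on chromosome 17, had a KO difference of 0.38 ± 0.15, not called. Serping1, the inhibitor of C1 and of plasma kallikrein, stayed between 0.78 and 1.26. C4bp, which restrains the C4 step, was highest in 569, at 1.04, 1.3 and 1.86 against 1, 0.81 and 0.93 in WT (0.58 ± 0.20, limma adjusted p = 0.543), and its other probe was near 0 there (0.04 ± 0.11). The other probes of C1ra gave differences between -0.39 and 0.12 from WT, none called. Cfb and Cfi, an activator and an inhibitor of the alternative pathway, ranged from 0.83 to 1.12 and from 0.8 to 1.24 and were not called in any comparison with WT.

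In the contact phase and the intrinsic pathway the adjacent genes F11 and Klkb1 gave the lowest values. F11 encodes factor XI, which activates factor IX, and Klkb1 encodes plasma prekallikrein. F11 ratios were 1.52, 1.13 and 1.53 in WT and 1.26, 1.17 and 1.83 in 569. Those of the other genotypes were 0.54, 0.44 and 0.86 in 391, 0.52, 0.39 and 0.66 in Box1, and 1, 1.02 and 0.73 in KO. All 9 of these arrays lay under the WT and 569 arrays, with KO nearest to them.

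F11 fell 2.34-fold in 391 (-1.23 ± 0.25, limma adjusted p = 0.0194) and 2.7-fold in Box1 (-1.43 ± 0.25, adjusted p = 0.00861), and in KO it was not called (-0.61 ± 0.25, adjusted p = 0.296). These calls depended on single arrays. The 391 call was lost in 4 of 6 refits (without WT replicate 1 or 3, or 391 replicate 1 or 2; adjusted p = 0.0534 to 0.0848) and the Box1 call in 2 of 6 (without WT replicate 3 or Box1 replicate 2; adjusted p = 0.0528 and 0.0551). With the 6 WT and 391 arrays alone the 391 call was also lost (adjusted p = 0.0957). A second F11 probe had smaller differences with a tighter spread and was called in all 3 genotypes, at -0.48 in 391, -0.47 in Box1 and -0.35 in KO (limma adjusted p = 0.00351, 0.00414 and 0.0234).

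Klkb1 ratios were 1.28, 1.39 and 1.19 in WT, 0.9, 1 and 1.27 in 569, 0.58, 0.38 and 1 in 391, 0.97, 0.71 and 1.01 in Box1, and 1.08, 0.86 and 1.09 in KO. Within 391 the arrays were spread widely, and replicate 3 reached the level of the KO arrays. Klkb1 fell in 391 (-1.09 ± 0.25, limma adjusted p = 0.0411), a call kept in 1 of 6 refits, that without 391 replicate 3, and lost in the refits without each other 391 or WT array (adjusted p = 0.0800 to 0.156). It was also lost with robust eBayes (adjusted p = 0.0604) and with the 6 WT and 391 arrays alone (adjusted p = 0.229). The Box1 and KO differences, -0.54 ± 0.25 and -0.35 ± 0.25, were not called.

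Kng1 encodes kininogen, the carrier of prekallikrein and source of bradykinin. It fell from 569 to 391 (-0.51 ± 0.14, limma adjusted p = 0.0487) but was not called against WT in any genotype, and its other probe was not called. F12, factor XII, which starts the contact phase, had ratios between 0.54 and 1.21 and was not called on either of its probes.

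**Figure D3:**
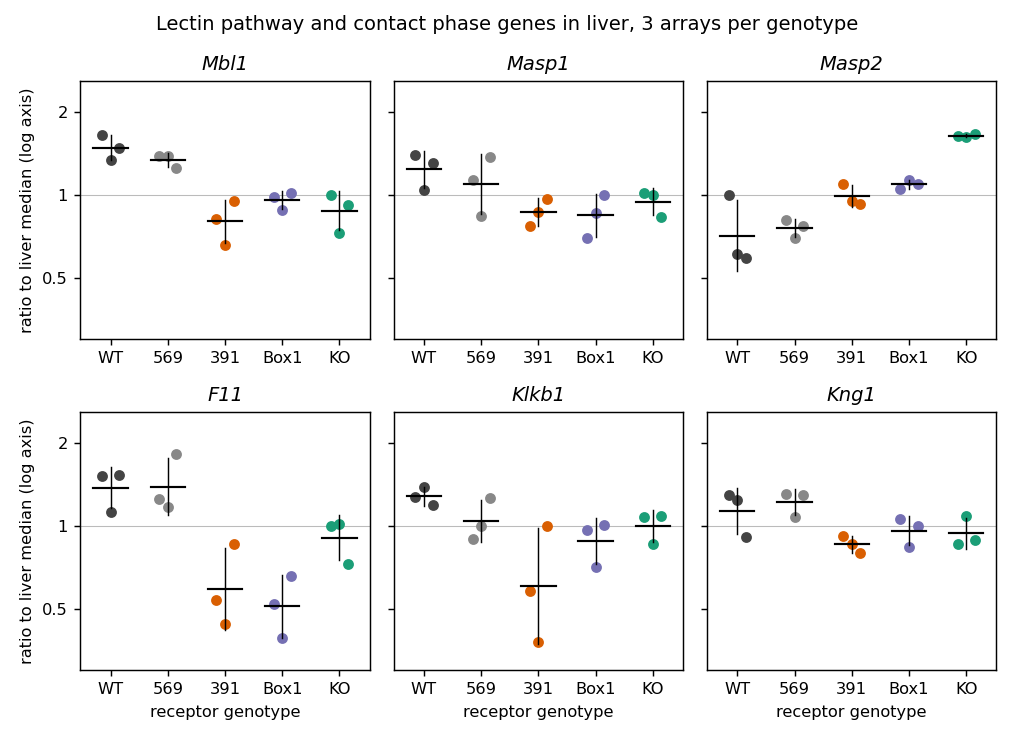
Liver ratios of Mbl1, Masp1, Masp2, F11, Klkb1 and Kng1 by genotype on a log axis, with 1 point per array, the mean of the log2 ratios as a bar and ± SD of 3 arrays as a line. Mbl1 and F11 are lower in 391, Box1 and KO than in WT, Masp2 is highest in KO at 1.63 to 1.67, and Klkb1 spreads from 0.38 to 1 within 391.

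The genes of clot formation itself were not called in any comparison of a genotype with WT. Fibrinogen, the precursor of fibrin, has 3 chains whose genes lie together on chromosome 3. Fga ratios were 1, 0.93 and 0.96 in WT, 1.02, 0.93 and 0.84 in 569, 1.04, 1.04 and 0.95 in 391, 1.14, 1.12 and 0.92 in Box1, and 1, 0.82 and 1.1 in KO. Fgb ratios were 1.29, 1 and 1 in WT, 0.83, 1 and 0.81 in 569, 0.91, 1.04 and 1.07 in 391, 1.09, 1.03 and 0.93 in Box1, and 1, 1.07 and 0.92 in KO. Fgg ratios were 0.88, 0.93 and 0.94 in WT, 1.84, 0.98 and 1 in 569, 1.19, 1.32 and 1.24 in 391, 1.28, 1 and 1.43 in Box1, and 0.76, 1.15 and 0.85 in KO. The highest value was that of Fgg in 569 replicate 1, and the arrays of Fga overlapped between all genotypes. Differences of Fga, Fgb and Fgg from WT lay between -0.31 (Fgb in 569) and 0.45 (Fgg in 391). The other Fga probe was not called either, with differences between -0.17 and -0.01.

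The 5 measured vitamin K-dependent factors were F2 (prothrombin), F7, F9, F10 and Proc (protein C). None was called against WT, and their differences lay between -0.26 (F9 in Box1) and 0.37 (F7 in 391). F5, the cofactor that speeds prothrombin cleavage, had differences of 0.16, 0.36 and 0.34 in 391, Box1 and KO, and F13b, the carrier chain of the fibrin-crosslinking enzyme, had 0.07, -0.06 and 0.40, none called. In fibrinolysis neither Plg (plasminogen) nor Serpinf2 (its inhibitor, alpha-2-antiplasmin) was called, although all Serpinf2 arrays of 569, 391, Box1 and KO (0.89 to 1.58) stood above the WT arrays (0.72 to 0.82) on the main probe. On the other Serpinf2 probe the 391 arrays (0.8 to 1.5) overlapped those of WT (0.74 to 0.84), and the other 3 genotypes stood above them. Of all genes, 3.66%, 11.9%, 15.3% and 14.1% had all arrays of 569, 391, Box1 and KO above all WT arrays. The other probes of Plg and F5 were not called against WT, with F5 at 0.14, 0.42 and 0.36 in 391, Box1 and KO. Of the thrombin inhibitors, Serpinc1 (antithrombin) was lowest in KO, at 0.61, 0.7 and 0.89 against 1.33, 0.86 and 0.87 in WT (-0.46 ± 0.17, limma adjusted p = 0.243), and Serpind1 (heparin cofactor II) was not called.

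No gene of the set was called between WT and 569, which does not show that they are alike. The mean of 391, Box1 and KO was also compared with the mean of WT and 569, which uses all 15 livers. Here 8 genes fell and 3 rose, where 15.3% of all genes were called, 1.36% downward and 13.9% upward. The upward count of the set, 3 of 38, is below the share of all genes. The genes that fell were C8a (-3.58 ± 0.12), C6 (-2.58 ± 0.16), C8b (-2.26 ± 0.13), C9 (-1.53 ± 0.14), F11 (-1.10 ± 0.16), Mbl1 (-0.69 ± 0.09), Masp1 (-0.40 ± 0.11) and Kng1 (-0.36 ± 0.09). Those that rose were Masp2 (0.72 ± 0.10), F5 (0.39 ± 0.09) and F7 (0.30 ± 0.07), the last the enzyme that starts coagulation together with tissue factor. The falls of Masp1 and Kng1 rest on 1 probe each: the 3 other Masp1 probes gave -0.06, 0.22 and -0.14 and the other Kng1 probe -0.03, none called. The other Masp2 probe (-0.06) and the other C6 probe (-0.01) were not called here either. The second probes of C9 (-0.43), F11 (-0.51) and F5 (0.34) were called in the direction of the first. For Serpinf2 the main probe was not called (0.29, limma adjusted p = 0.165) and the other was (0.38 ± 0.11, adjusted p = 0.0337). A moderated F test in limma over the 5 genotypes called 7 genes (9.07% of all genes): C6, C8a, C8b, C9, Masp2, Mbl1 and F11.

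Most genes called against WT were also called between the 2 truncations. From 569 to 391 liver 7 genes fell and 0 rose (7.9% of all genes called, 0.582% downward): C6, C8a, C8b, C9, Mbl1, F11 and Kng1. Klkb1, called in 391 against WT, and Masp2, called in KO against WT, were not called here. Kng1 was not called against WT. C8a was 14.2-fold lower (-3.83 ± 0.18, limma adjusted p = 1.09e-08), C8b fell by 2.48 ± 0.20, C6 fell by 2.48 ± 0.25 and C9 fell by 1.83 ± 0.22. In a fit of these 6 arrays alone, 4 genes were called, without Mbl1, F11 and Kng1. In the 391 livers, pancreatic acinar transcripts stood high in replicates 2 and 3, where 15 and 12 of 17 markers had a log2 ratio above 1, and 9 of 11 skeletal muscle markers did so in replicate 2. Without both of these arrays, all 7 genes called in 391 against WT were called again in limma, with C8a at -4.10 and C6 at -2.69; the single 391 array left was taken to vary like the other groups.

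Between 391, Box1 and KO limma called none of the 38 genes: 0 for KO against 391 (0.325% of all genes), 0 for KO against Box1 (0.247%) and 0 for Box1 against 391 (0.00515%). At an unadjusted p under 0.05 these comparisons gave 11, 8 and 3 genes of the set, with 11%, 11.2% and 7.62% of all genes. For C8a and C8b all KO arrays, at 0.95 to 1.34 and 0.77 to 1.02, lay above all 391 and Box1 arrays. Of all genes, 5.73% had all KO arrays above all 391 arrays, and 6.94% had them above all Box1 arrays. The differences between KO and Box1 were 0.88 ± 0.18 for C8a (limma adjusted p = 0.0867) and 1.0 ± 0.20 for C8b (adjusted p = 0.0773), and between KO and 391 they were 0.73 ± 0.18 and 0.79 ± 0.20 (adjusted p = 0.185 and 0.18). KO and 391 shared a slide and KO and Box1 did not. Some settings called these differences: quantile normalization called C8a, C8b and F11 between KO and Box1, and a fit of the 6 arrays alone called C8a, C8b, Masp2 and Serpinc1. A p above the threshold does not show that KO and Box1 livers are alike.

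Beyond the set, 26 of 34 other complement genes were measured, and 0, 0, 0 and 1 of them were called in 569, 391, Box1 and KO against WT, with 2, 2, 5 and 6 at an unadjusted p under 0.05, where 9.94%, 17.7%, 16.9% and 18% of all genes had such a p. The 1 gene was C4b, which rose in KO by 2.20 ± 0.44 on 1 of its 4 probes (limma adjusted p = 0.0172), while the other 3 had differences of -0.09, 0.50 and -0.18 and were not called. C4a and C4b are near-identical, and which copy each probe reads is uncertain. Of 30 measured other coagulation and fibrinolysis genes limma called 0 against WT in each genotype, with 6, 3, 5 and 4 at an unadjusted p under 0.05. Of 8 genes of the vitamin K cycle and factor secretion, Gas6, a vitamin K-dependent ligand, rose in Box1 by 0.84 ± 0.19 (limma adjusted p = 0.0421). Among 18 liver transcription factors, Bcl6, a repressor that competes with STAT5, rose in 391, Box1 and KO (1.87, 1.94 and 1.83). Stat3 rose in the same genotypes (0.86, 1.0 and 0.71), and Stat5a was called higher in 391 only (0.80). Foxa1 fell in 391 and KO (-0.64 and -0.76). Acute phase proteins, which like fibrinogen are made during inflammation, differed between arrays: their median log2 ratio was -0.32, -0.32 and -0.47 in WT and 0.37, 0.42 and -0.18 in 569. Of 21 such genes, 0, 5, 6 and 3 were called higher in 569, 391, Box1 and KO and 1 was called lower, in KO. Of all genes, 0.0155%, 3.18%, 2.1% and 3.3% were called either way in these comparisons. That 0 were called in 569 does not show that they were unchanged there. The part of the acute phase proteins in the values of C4bp and Fgg was not tested.

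In fat none of the 38 genes was called in any genotype against WT. The limma counts at an unadjusted p under 0.05 were 0, 1, 2 and 1 in 569, 391, Box1 and KO, where 10.2%, 4.74%, 5.14% and 6.69% of all genes had such a p, and 0%, 0.0206%, 0.00515% and 0% of all genes were called. C8a fat ratios lay between 0.8 and 1.31 and those of C8b between 0.78 and 1.54 over all 15 arrays. For both genes the differences from WT in 391, Box1 and KO fat were negative, and none was called. C6 was lower in fat of 391 (0.92, 0.93 and 0.95) and Box1 (1, 1.04 and 0.74) than of WT (1.14, 1.22 and 1.64), by 0.50 ± 0.23 and 0.52 ± 0.23, and limma called neither (adjusted p = 1 for both). The mean of C6 in KO fat was also below that of WT and was not called. The other C6 probe gave fat differences of -0.15, -0.23 and -0.24 in 391, Box1 and KO, none called.

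The differences between liver and fat were tested directly. The fall was larger in liver for C6, C8a and C8b in all 3 genotypes and for F11 in Box1, and no other gene of the set was called on its main probe. In 391, 3 genes were called downward (0.361% of all genes either way): C8a by -3.59 ± 0.26, C6 by -2.30 ± 0.36 and C8b by -2.13 ± 0.31 (limma adjusted p = 8.2e-09, 0.00192 and 6.51e-04). In Box1, 4 were called (0.278%): C8a by -3.72 ± 0.26, C8b by -2.57 ± 0.31, C6 by -2.29 ± 0.36 and F11 by -1.60 ± 0.30 (adjusted p = 4.04e-09, 5.61e-05, 0.00257 and 0.0175). In KO, 3 were called (0.536%): C8a by -2.79 ± 0.26, C6 by -2.21 ± 0.36 and C8b by -1.47 ± 0.31 (adjusted p = 7.16e-07, 0.00317 and 0.0374). The main C9 probe was not called in this test (-1.25 ± 0.33, -1.40 ± 0.33 and -0.90 ± 0.33). Its other probe was called in 391 (-0.71 ± 0.14, limma adjusted p = 0.0264) and not in Box1 or KO (-0.44 and -0.54). In 569 limma gave 0 calls (0% of all genes), with 1 gene of the set and 8.36% of all genes at an unadjusted p under 0.05.

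**Figure D4:**
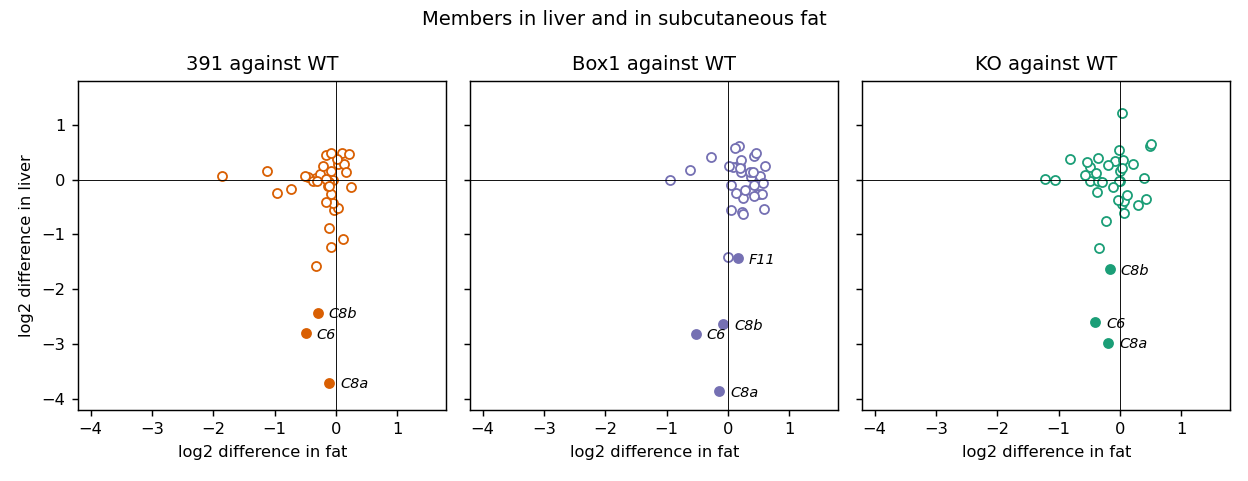
Log2 difference from WT in liver (vertical axis) against that in fat (horizontal axis) for the 38 genes, with 1 panel each for 391, Box1 and KO. Filled, named points are genes whose difference was called unequal between the tissues; C8a, C6 and C8b lie low on the vertical axis and near 0 on the horizontal one.

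Hepatocyte transcripts stood high in 2 fat arrays, Box1 replicate 2 and WT replicate 2. Their median log2 ratio over 12 hepatocyte markers was 3.36 and 1.60, with 9 markers above 1 in each, against -0.26 to 0.43 in the other 13 fat arrays. Ttr, a marker of hepatocytes, stood at 41.4 and 13.96. The next highest Ttr was 3.92 in WT replicate 3, where Fga also stood above a log2 ratio of 1. WT replicate 3 was kept in the refit described below. Of the complement and coagulation genes, 13 stood above a log2 ratio of 1 in Box1 replicate 2 and 6 in WT replicate 2. Fga was the highest, at 30.5 and 13.57, and C8g, F2, Proc and F9 reached 5.98, 5.9, 5.73 and 5.06 in Box1 replicate 2. In that same array C8a stood at 0.9, C8b at 1.12, C6 at 1.04 and C9 at 1.77. C8g was thus high in that array while C8a, C8b and C6 were not. Some other hepatocyte genes were also near 1 there, with Alb at 1.32, Fgb at 1.07 and Fgg at 1.01. In WT replicate 2, where the marker rise was smaller, C8a, C8b and C6 stood at 1.1, 1.54 and 1.22 and C8g at 2.

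**Figure D5:**
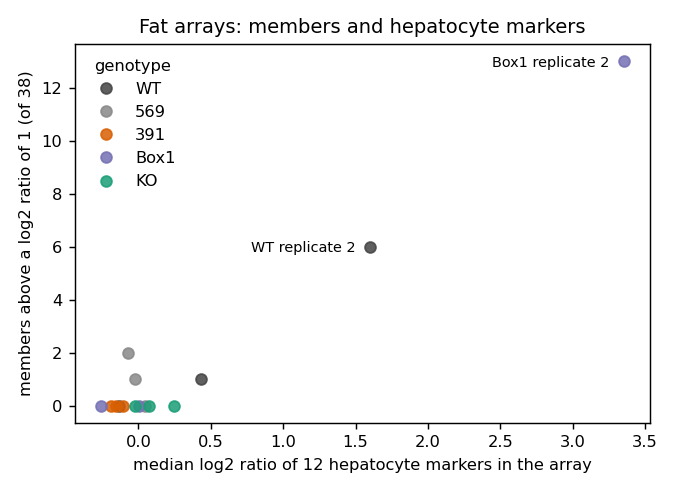
Number of the 38 genes with a log2 ratio above 1 (vertical axis) against the median log2 ratio of 12 hepatocyte markers (horizontal axis) in each of the 15 fat arrays, coloured by genotype. Box1 replicate 2 (13 genes) and WT replicate 2 (6 genes) stand apart from the rest, which hold 0 to 2.

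Without both arrays, 0 genes were called in fat in any genotype, and C6, C8a and C8b remained called between the tissues in 391, Box1 and KO, while F11 in Box1 did not. Another fat array, 569 replicate 3, had C1qa, C1qb and C1qc at 0.2, 0.1 and 0.1 against 1.62, 1.7 and 1.67 in replicate 1 of the same group. Its 21 macrophage markers had a median log2 ratio of -1.79, with 13 below -1, and all 11 skeletal muscle markers had a log2 ratio above 1. High muscle markers were not particular to this array. Up to 8, 10 and 8 of them stood above 1 in single fat arrays of 391, Box1 and KO, and 0 in WT. Their part in the fat values was not tested. Lymphocyte marker medians were -2.72 to -2.50 in 569 fat, and the lowest in Box1, KO and WT fat were -2.61, -2.36 and -1.72. Among the fat 569 arrays, the lowest median was -2.29 for adipocyte, -1.51 for endothelial, -1.37 for erythroid and -1.12 for stellate and fibroblast markers. The lowest medians of hepatocyte, bile duct and pancreatic acinar markers were -0.07, -0.007 and 0. C2, Cfb and Serping1 were also lowest in 569 replicate 3, at 0.16, 0.23 and 0.35. Several marker lists thus stood apart in this array, and their part in the C1q values was not tested.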

How the data were processed

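Per the labels, total RNA from frozen liver and subcutaneous fat was biotin-labelled and hybridised to Illumina bead arrays, 3 per tissue and genotype. The deposited values are ratios: in each tissue the median over 15 arrays is exactly 1 for all 46643 probes. How the authors corrected background and normalized, and with which software, is not given in the sources used here. Array medians lie between 0.98 and 1.01. With no level in a ratio, signal over background is unknown, no filter on dim probes could be made, and 3 arrays per group limit the precision.

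Probes were named through the platform annotation (1 symbol for 32794 probes, several for 55, none for 13794). Ratios were taken to log2 with no offset and modelled with limma 3.58.1 under R 4.3.3 (lmFit, eBayes), 1 model per tissue over its 5 genotypes and another over the 30 arrays for liver minus fat. Tests were two-sided, with Benjamini-Hochberg adjustment over all probes. The fit was tested on simulated data. A gene with several probes (13 of the set) is represented by the probe of largest SD over the 15 livers, which favours probes that vary; other probes are given as values or counts. Promoters (GRCm38.p6) were searched in Python 3.11.15 with pandas 2.3.3, and figures were drawn with matplotlib 3.10.9.

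Every gene of the set is accounted for. Genes called in any liver comparison with WT, and all subunits of C1q, C8 and fibrinogen, are given by array. The others are given by range or difference, except Plg and Serpind1, which are given only as not called. From the other lists only some of the called genes are named, at most 4 each way per comparison. The called genes among the acute phase proteins and their cytokine receptors are not named. The members, the lists and the order of the questions were chosen with earlier results of these data known. C7, the Ghr probes, the fat arrays and the array 569 replicate 3 were added after their values were seen.

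Alternatives were quantile normalization, an offset of 0.1, probes with 1 symbol only, no probe with a ratio of 0.1 or less, the mean over a gene's probes, robust eBayes, array weights, only the arrays compared, each array left out in turn, and no 391 livers with pancreatic transcripts. Chosen after seeing the data were no fat arrays with hepatocyte transcripts, the probe of largest SD in fat and the probe of smallest SD in liver.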

Additional observations from a re-analysis of the deposited data

Results flagged for a closer look

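The tested differences between liver and fat in the change from WT stood out on the main probe of 4 genes, all of them more negative in liver (limma, all 30 arrays in 1 fit). In 391 the difference between the tissues was -2.30 for C6, -3.59 for C8a and -2.13 for C8b. In Box1 it was -2.29 for C6, -3.72 for C8a, -2.57 for C8b and -1.60 for F11. In KO it was -2.21 for C6, -2.79 for C8a and -1.47 for C8b. A ratio holds no level, so whether fat expresses these genes cannot be read from the arrays.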

How the results depend on the processing

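Across the settings run, 314 counts of called genes equalled the main count or stayed within 1.5 times it, 7 rose and 3 fell beyond it. The 314 include main counts of 0 that stayed 0. A count within this band can also hide a change in which genes were called. Between KO and 391, where the main count was 0, quantile normalization and the 6 arrays alone gave 1 (Masp2), and leaving out 391 replicate 3 gave 2 (C8b and Klkb1). Between KO and Box1, also 0, quantile normalization gave 3, the 6 arrays alone gave 4, and leaving out Box1 replicate 1 gave 2 (C8a and C8b). With the 6 arrays alone, 391 against WT gave 4 (without Mbl1, F11 and Klkb1) and 391 against 569 gave 4. The probe of smallest SD in liver gave 2 for liver minus fat in Box1, without C6 and F11, and 391, Box1 and KO against WT then gave 6, 4 and 5. The cause was not tested for any of these. Leaving out 1 array gave 0 to 0 called genes for 569 against WT, 5 to 7 for 391, 4 to 6 for Box1, 5 to 6 for KO, 5 to 7 for 391 against 569, 0 to 2 for KO against 391 and against Box1, 10 to 15 for the 3 mutants pooled, 7 to 9 for the F test, 0 to 0 in fat, and for liver minus fat 3 to 5 in 391, 3 to 4 in Box1 and 2 to 3 in KO. Of 472 values of single genes, 13 changed sign, none called under the other setting. For 2 of these the main value was called, both on another probe: C6 in Box1 (0.18, adjusted p = 0.656) and Masp2 in KO (-0.017, adjusted p = 0.983). The other 11 main values were not called. On another probe these were C6 in 569 (0.089) and Masp2 in 391 (-0.010) and Box1 (-0.074), and with array weights F11 in 569 (-0.0014). Without 1 array, values in 569 ran from -0.082 to 0.17 for C8b, from -0.18 to 0.14 for F11 and from -0.042 to 0.34 for Masp2, turning sign in 7 refits. C6, C8a and C8b kept their calls in 391, Box1 and KO in every refit without 1 array. Signal over background limits what can be said of probes that stayed near 1. No paired analysis was possible because the labels give no replicate numbers, and no slide block could be fitted because each group lay on 1 slide.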
